A study of Arabidopsis thaliana with 10 samples.

Results

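The effect of dexamethasone (Dex) on wild-type Arabidopsis thaliana seedlings was measured by RNA sequencing of 4 libraries, 2 of Col-0 grown on 10 µM Dex and 2 of Col-0 without it, out of 10 libraries in the series. The members of the comparison are the libraries that the labels place in these groups. All 4 came from whole wild-type seedlings aged 12 days with 4 open true leaves, grown in long days on sucrose medium. The control medium held 0.1% ethanol, and the Dex medium held the same ethanol plus the 10 µM Dex, so ethanol was shared by both groups. The other libraries were 2 of the line DIF-OX2 without Dex, 2 of DIF-OX2 on 10 µM Dex, both at 12 days and in the Col-0 background, and 2 of the mutant dal-2 without Dex, aged 20 and 21 days. The labels do not give the promoter or the number of independent lines behind DIF-OX2. The labels do not tell whether replicates were grown as separate cultures, and the p-values reflect only the variation among these libraries, which may be technical.

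Dex is a synthetic glucocorticoid. Plants have no glucocorticoid receptor of their own, and the compound is widely used in them to switch on transgenes that carry the animal receptor's hormone-binding part. A wild type grown on Dex is the usual control for effects of the compound that do not pass through the transgene. Plant cells hold genes in the nucleus, in plastids and in mitochondria. Organellar transcripts mostly lack stable poly(A) tails, and a tail added to them commonly marks them for decay. The labels do not say whether poly(A) RNA was selected.

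The 4 Col-0 libraries held 9780846 and 10463971 counts without Dex and 11384722 and 16556322 on Dex, within 8805568 to 16556322 over all 10. Of 33602 genes counted, 20681 passed the filter on low counts and were tested, of which 20601 were nuclear, 63 of 133 were plastid and 17 of 146 were mitochondrial. Levels are given in CPM, which are counts relative to the library total, after TMM scaling (the trimmed mean of M values), and each fold change is on the log2 scale, Dex against no Dex, with its standard error (SE). The 2 Col-0 libraries without Dex were no more alike than libraries of different groups. The SD of log2 differences over all tested genes was 0.439 between these 2 and 0.355 between both Dex libraries. Between a library on Dex and a library without, the SD was 0.367 and 0.394 for the same replicate number. For different replicate numbers it was 0.427 and 0.442. The closing section gives fits with the replicate number as a term.

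No gene was called. In edgeR's quasi-likelihood test over all 10 libraries, 0 of 20681 genes (0%) had a Benjamini-Hochberg adjusted p at or under 0.05, and the smallest adjusted p was 1. At an unadjusted p under 0.05 there were 566 genes (2.74% of those tested), 252 higher on Dex (1.22%) and 314 lower (1.52%). Under upper quartile scaling that split was 301 higher and 251 lower. limma-voom and DESeq2 likewise called 0 genes, with 512 and 352 genes at an unadjusted p under 0.05, and DESeq2's smallest adjusted p was 0.0968. Each of 15 other settings of scaling, filter, libraries, test and terms gave 0 calls, and a fit added after seeing the data that did not is given in the closing section. The dal-2 libraries share the estimate of spread in the main test, and without them 1132 genes (5.57%) had an unadjusted p under 0.05. With the 4 Col-0 libraries alone the number was 1042 (5.37%), and both of these fits called 0 genes.

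The fitted changes were small. The median log2 fold change over all genes was -0.01, and 95% of genes lay between -0.74 and 0.69. Fitted changes over 2-fold were found for 483 genes (2.34%). Both Dex libraries lay above both libraries without Dex in 3811 genes (18.4%) and below them in 3461 genes (16.7%). With 2 libraries against 2, the smallest exact two-sided permutation p for a single gene is 0.333, so no gene could pass the threshold by that test.

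How small a change could be seen depended on the level of the gene and on its genome. The half-width of the 95% interval of the log2 fold change, which is about the change that would just reach an unadjusted p of 0.05, had a median of 0.50 over the 20542 genes with an interval, or 1.41-fold. A further 139 genes had a group of the 5 at 0 counts and were given no interval. Among nuclear genes the median half-width was 1.54 (2.90-fold) under 1 CPM, 0.70 (1.63-fold) from 1 to 10 CPM, 0.39 (1.31-fold) from 10 to 100 CPM and 0.42 (1.33-fold) from 100 CPM. For plastid genes it was 1.28 (2.43-fold), and for mitochondrial genes 1.63 (3.097-fold). Nuclear genes from 10 CPM were thus measured most closely, and nuclear genes under 1 CPM and mitochondrial genes least.

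The interval of the fold change lay wholly within 2-fold in either direction for 15011 genes (72.6%) and within 1.5-fold for 8609 (41.6%). For these genes a wild-type response to Dex beyond those sizes was outside the 95% interval. The share within 2-fold was 90.6% of nuclear genes from 10 to 100 CPM and 83.5% of those from 100 CPM, against 0.571% of those under 1 CPM. It was 2 of 63 plastid genes (3.17%) and 0 of 17 mitochondrial genes. An interval wholly beyond 2-fold was found for 2 genes, both nuclear.

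To be called after adjustment, a gene that changed alone would have needed a p of 2.42e-06. At the measured errors that takes a median change of 2.48 on the log2 scale, or 5.57-fold, and the best measured gene would have needed 2.15-fold. No gene of any class could therefore have been called alone at a 2-fold change. If as many genes had responded as in DIF-OX2 on Dex, where the largest p called was 0.0121, a median change of 0.70 (1.62-fold) would have been enough, and 14604 genes (70.6%) would have needed less than 2-fold. These sizes come from the fit to 10 libraries with no term for the replicate number, and the closing section gives the half-widths with that term.

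**Figure D1:**
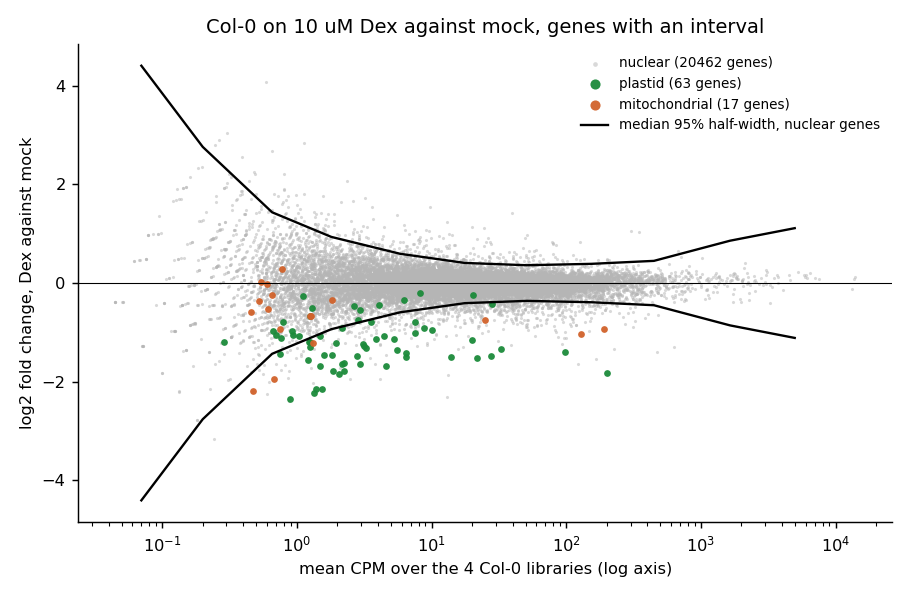
Log2 fold change of Dex against no Dex in Col-0 for the 20542 genes with an interval (points, coloured by genome) over mean CPM of the 4 Col-0 libraries on a log axis, with the median 95% half-width of nuclear genes at each level as black lines. The nuclear genes centre on 0 and narrow with level, and all 63 plastid genes lie below 0.

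The 10 genes of smallest p show the size of difference that came closest to the threshold, and all had an adjusted p of 1 in edgeR's quasi-likelihood test. In all 10 the 2 groups of Col-0 did not overlap, 5 higher and 5 lower on Dex. That separation is not a finding about these genes, since they were chosen by p in the same libraries.

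GA20OX1 (AT4G25420, chr4:12990851-12992585 in TAIR10.1, minus strand), a gibberellin 20-oxidase of hormone synthesis, had the smallest p. Its levels were 1.78 and 1.94 CPM without Dex and 4.93 and 5.86 CPM on Dex, a log2 fold change of 1.53 (SE 0.24, unadjusted p = 0.000175, in edgeR's fit). In DIF-OX2 the same gene had 4.99 and 5.25 CPM without Dex and 1.83 and 1.88 CPM on Dex. The order of the treatments was thus opposite in the 2 genotypes, and in DIF-OX2 it fell by 1.45 on the log2 scale with an adjusted p of 0.00395.

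ACS6 (AT4G11280, chr4:6863979-6866116, plus strand), an enzyme that makes the ethylene precursor ACC, had 82.5 and 72.7 CPM without Dex and 40.1 and 45.3 CPM on Dex. The log2 fold change was -0.86 (SE 0.14). In DIF-OX2 it had 48.7 and 46.4 CPM without Dex and 18.6 and 20.9 CPM on Dex, a fall of the same direction that was called there (-1.26, adjusted p = 0.00105 in edgeR's fit). The difference between both effects was not called (adjusted p = 0.271).

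CYP82C4 (AT4G31940, chr4:15451988-15454224, plus strand), a cytochrome P450 that takes part in making iron-binding coumarins under iron deficiency, had 128 and 109 CPM without Dex and 61.3 and 49.8 CPM on Dex. The log2 fold change was -1.09 (SE 0.19). DIF-OX2 lay below all 4 Col-0 libraries without Dex, at 20.9 and 26.7 CPM, and rose to 39.7 and 52.5 CPM on Dex (0.96, adjusted p = 0.0102). IGMT2 (AT1G21120), an indole glucosinolate methyltransferase, had 1.11 and 1.402 CPM without Dex and 3.32 and 4.63 CPM on Dex. Its log2 fold change of 1.67 (SE 0.34) in Col-0 stood beside a rise of 4.604 in DIF-OX2, to 32.0 and 49.1 CPM.

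CYP705A5 (AT5G47990), a cytochrome P450 of thalianol-derived triterpene synthesis, had 6.46 and 7.33 CPM without Dex and 11.95 and 13.96 CPM on Dex. The other genes of the 10 are known from the reference by product only. A TIR-domain protein (AT1G72940) had 13.0 and 16.3 CPM without Dex and 5.98 and 7.97 CPM on Dex. An EF-hand calcium-binding protein (AT2G41410) had 121 and 122 CPM against 67.1 and 83.5 CPM. A copper amine oxidase (AT3G43670) had 17.5 and 21.9 CPM against 31.2 and 38.4 CPM, and an uncharacterized protein (AT2G47200) 5.79 and 5.82 CPM against 9.86 and 10.6 CPM. In DIF-OX2 on Dex the EF-hand gene rose, and CYP705A5 and the amine oxidase fell (adjusted p of 0.0256, 0.0171 and 0.00979 in edgeR's fit), each opposite in sign to Col-0. The TIR-domain and the uncharacterized gene were not called there.

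MIR156c (AT4G31877), the precursor of a microRNA that holds plants in the juvenile phase by repressing SPL transcription factors, was the microRNA gene among the 10. Its 2 mature arms are shown because the family shares the seed and not the precursor, which is what a gene count measures. They are given from RefSeq in TAIR10.1, with the seed at bases 2 to 8 in capitals, and lie at chr4:15415491-15415510 and chr4:15415426-15415447 on the minus strand.
miR156c-5p: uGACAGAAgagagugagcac
miR156c-3p: gCUCACUGcucuaucugucaga
Of 10 MIR156 genes in the reference, 10 hold the seed of miR156c-5p in their 5′ arm and 6 hold its whole sequence. The count table held 8 of these genes and MIR156c alone had enough counts to be tested.

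MIR156c had 4.90 and 5.39 CPM without Dex and 1.80 and 1.77 CPM on Dex in Col-0, a log2 fold change of -1.52 (SE 0.28). In DIF-OX2 it had 4.59 and 5.07 CPM without Dex and 1.62 and 1.82 CPM on Dex, a fall of 1.47 on the log2 scale with an adjusted p of 0.00762 in edgeR's fit. The 4 libraries on Dex thus lay below the 4 without it, and the difference between both effects was 0.05 on the log2 scale (adjusted p = 0.966). The gene spans 104 bases in the annotation and its counts in Col-0 averaged 34.8 a library. Of its targets, chosen after the values were seen, SPL3 had 1.23 and 2.48 CPM without Dex and 0.949 and 0.885 CPM on Dex, SPL4 had 5.24 and 9.60 CPM against 5.88 and 8.51 CPM, and SPL5 had 4.57 and 8.84 CPM against 4.27 and 5.38 CPM. None of the 3 was called.

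**Figure D2:**
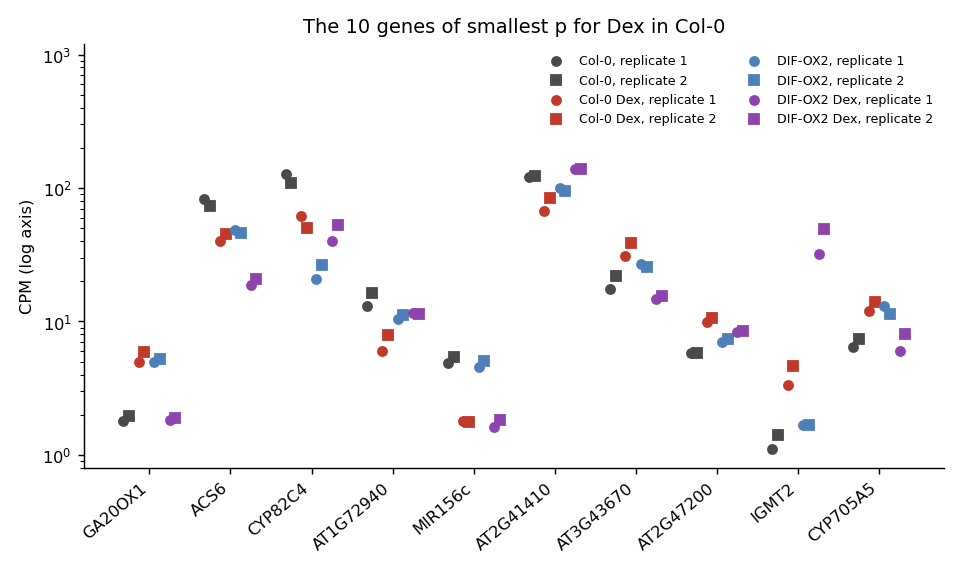
CPM on a log axis of the 10 genes of smallest p for Dex in Col-0, with 1 point for each library of Col-0 and DIF-OX2 with and without Dex. MIR156c and ACS6 are lower on Dex in both genotypes, while GA20OX1 is higher on Dex in Col-0 and lower on Dex in DIF-OX2.

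Plastid genes were lower on Dex as a group, and none was called. All 63 tested had a fitted log2 fold change below 0, with a median of -1.20, against -0.01 over all genes, and values from -2.34 to -0.20. At an unadjusted p under 0.05 there were 31 of 63 (49.2%, against 2.74% over all genes), all lower, and in 44 (69.8%, against 16.7%) both Dex libraries lay below both others. Of 133 plastid genes in the table, the other 70 had too few counts to be tested.

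One library carried much of that difference. Plastid genes took 0.0515% and 0.111% of all counts in replicates 1 and 2 of Col-0 without Dex and 0.0365% and 0.0288% on Dex. In 62 of the 63 genes replicate 2 without Dex was the highest of the 4 libraries. The mean share was 2.497 times as high without Dex as on it, and 1.58 times without that library. Without it 60 of 71 tested genes were below 0 with a median of -0.64, and 4 had an unadjusted p under 0.05. Without replicate 2 on Dex 9 had one, and without replicate 1 of Col-0 45.

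Scaled to the plastid total of each library, the median log2 fold change was 0.08, with 37 genes above 0 and 26 below. That scaling removes a shift shared by all plastid genes but does not fix the median at 0. Genes of many counts weigh most in the total it uses. Single plastid genes ran from -1.05 to 1.09 on that scaling, and 8 had an unadjusted p under 0.05, all higher on Dex. The share of plastid counts in DIF-OX2 was 0.0357% and 0.0350% without Dex, between the 2 values of Col-0 on Dex, and 0.0194% and 0.0167% on Dex. There the median plastid log2 fold change was -1.19 and 9 of 63 genes were called, all lower, against 11.6% of all genes called lower.

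ATCG00020 and ATCG00490, the plastid IDs with the most counts, are not named in the reference. ATCG00020 had 171 and 459 CPM without Dex and 91.7 and 86.6 CPM on Dex (-1.82, SE 0.47), and ATCG00490 had 79.3 and 207 CPM against 51.3 and 56.7 CPM (-1.41, SE 0.40). In both, replicate 2 without Dex stood far above the other 3 libraries. Over the 8 plastid genes of highest count the log2 fold change ran from -1.82 to -0.25, and in 7 of them both Dex libraries lay below both others, against 16.7% of all genes. Of 5 tested plastid genes with a name in the reference, the subunit of the Clp protease encoded in the plastid (ATCG00670) had 4.12 and 4.75 CPM without Dex and 3.51 and 1.77 CPM on Dex. The CemA-like envelope protein (ATCG00530) had 3.45 and 5.39 CPM against 2.85 and 0.953 CPM. Ribosomal proteins S11 (ATCG00750) and L20 (ATCG00660) had log2 fold changes of -0.51 (SE 0.46) and -1.43 (SE 0.90). ATCG00430 had -0.91 (SE 0.61), and the reference names it photosystem II reaction center protein G only through a nuclear match. Whether that name gives the protein it encodes was not checked.

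**Figure D3:**
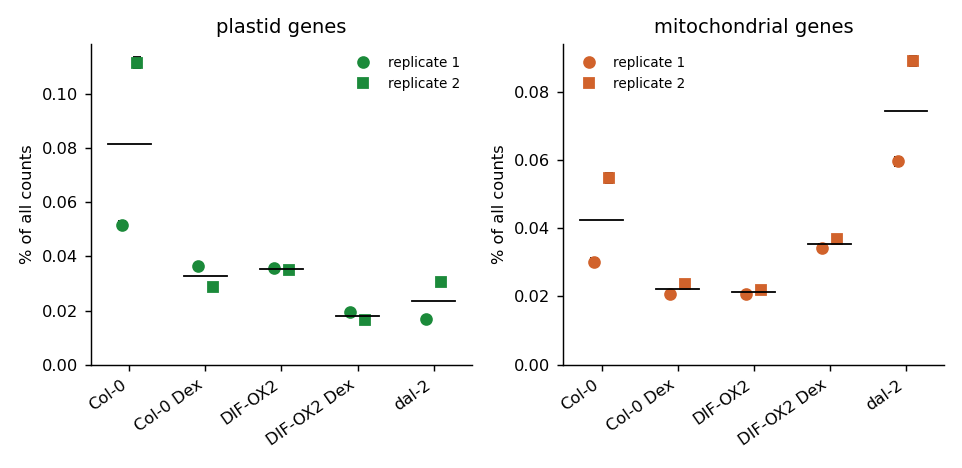
Share of all counts in plastid (left) and mitochondrial genes (right) in each of the 10 libraries, with group means as lines and 95% exact binomial intervals (mostly smaller than the points), which cover counting error only. Replicate 2 of Col-0 without Dex has the highest plastid share of all libraries, 0.111%, and the 2 libraries of Col-0 on Dex lie at 0.0365% and 0.0288%.

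Mitochondrial genes showed a smaller difference in the same direction, again with 0 called. Of 17 tested, 15 were below 0 with a median of -0.66 and 5 had an unadjusted p under 0.05 (29.4%, against 2.74% over all genes). Without replicate 1 on Dex 1 had one, and without replicate 2 on Dex 2. Mitochondrial genes took 0.0301% and 0.0547% of counts without Dex and 0.0206% and 0.0238% on Dex, a mean share 1.91 times higher without Dex and 1.36 times without replicate 2. Without that library the median was -0.15, with 17 of 26 genes below 0. Scaled to the mitochondrial total it was 0.29. In DIF-OX2 the share ran the other way, from 0.0207% and 0.0219% without Dex to 0.0343% and 0.0367% on it, with a median of 0.54 and 0 genes called.

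Only 3 of the tested mitochondrial genes carry a name of known function in the reference, and all 3 had few counts. Subunit 9 of the ATP synthase (ATMG01080) had 1.11 and 2.05 CPM without Dex and 0.949 and 1.02 CPM on Dex, with a 95% half-width of 1.26 on the log2 scale. ATP synthase subunit 6 (ATMG00410) had 0.446 and 1.73 CPM against 0.190 and 0.341 CPM, and cytochrome c oxidase subunit 3 (ATMG00730) had 0.334 and 0.755 CPM against 0.474 and 0.272 CPM. In each, replicate 2 without Dex was again the highest. Many mitochondrial genes have near-identical copies in the nuclear genome, and how reads were split between them is not stated. Over the 6 mitochondrial genes of highest count the log2 fold change ran from -1.21 to -0.34.

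**Figure D4:**
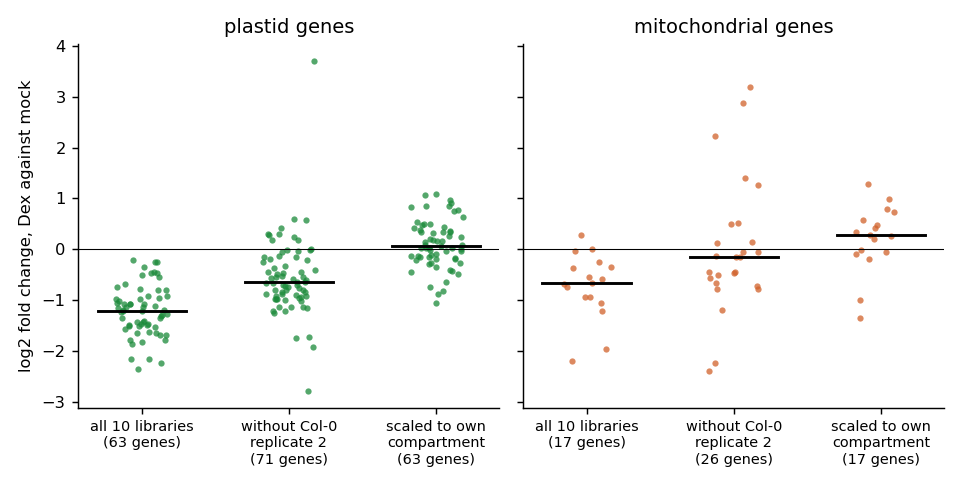
Log2 fold change of Dex against no Dex for each tested plastid (left) and mitochondrial gene (right), in the fit to all 10 libraries, without replicate 2 of Col-0, and with each genome scaled to its own total count. Black lines are medians. The plastid median moves from -1.20 to -0.64 and 0.08.

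Nuclear genes were also described by 29 lists, with 424 tested members. None of them was called. At an unadjusted p under 0.05 there were 19 members (4.48%, against 2.74% over all genes), 7 higher and 12 lower, and 19 of the 29 lists had none. Outside the flower and seed markers, list medians ran from -0.64 to 0.49. The 95% interval lay within 2-fold for 209 members (49.3%).

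Iron and copper nutrition had the most members at an unadjusted p under 0.05, 6 of 19, with a median log2 fold change of -0.64. Plants that sense too little iron raise uptake genes and lower ferritins, which store the metal. FER4 had 27.96 and 40.9 CPM without Dex and 64.2 and 65.0 CPM on Dex (0.91, SE 0.19), and FER3 had 49.8 and 63.1 CPM against 93.0 and 109 CPM (0.84, SE 0.19). FER1 had 154 and 299 CPM against 424 and 506 CPM (1.04, SE 0.48). The 3 ferritins, chosen after their values were seen, thus lay higher in both Dex libraries than in either other library. Over the 19 genes of the list the groups did not overlap in 5 higher and 6 lower on Dex. Over all genes these shares were 18.4% and 16.7%.

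The ferric reductases and the root iron transporter lay lower. IRT1, the root iron transporter, had 184 and 120 CPM without Dex and 90.2 and 79.1 CPM on Dex (-0.84, SE 0.35), and FRO3, a ferric reductase of mitochondria, had 67.3 and 43.7 CPM against 35.5 and 36.8 CPM (-0.62, SE 0.20). FRO2, the ferric reductase of the root surface, had 126 and 89.9 CPM against 80.8 and 57.8 CPM (-0.64, SE 0.35). For the short-peptide locus AT2G30766 replicate 1 without Dex stood alone, at 35.8 CPM against 5.82, 7.68 and 3.88 CPM in replicate 2 and on Dex. The same library was highest for bHLH38, a regulator of uptake genes, at 12.4 CPM against 2.70, 3.41 and 4.29 CPM. Over the list it was the highest of the 4 libraries in 13 of 19 genes. Without it the list median was 0.15 and not -0.64, so its sign rested on that library.

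On Dex in DIF-OX2, 7 of the 19 genes were called higher and 2 lower, against 12.7% and 11.6% of all genes, and in 6 the difference between both Dex effects was called, against 6.33% of all genes. For FRO3 the log2 fold change was 1.39 there (adjusted p = 0.00257 in edgeR's fit), and FER4 fell by 0.93 (adjusted p = 0.0121). Both values were opposite in sign to those of Col-0.

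**Figure D5:**
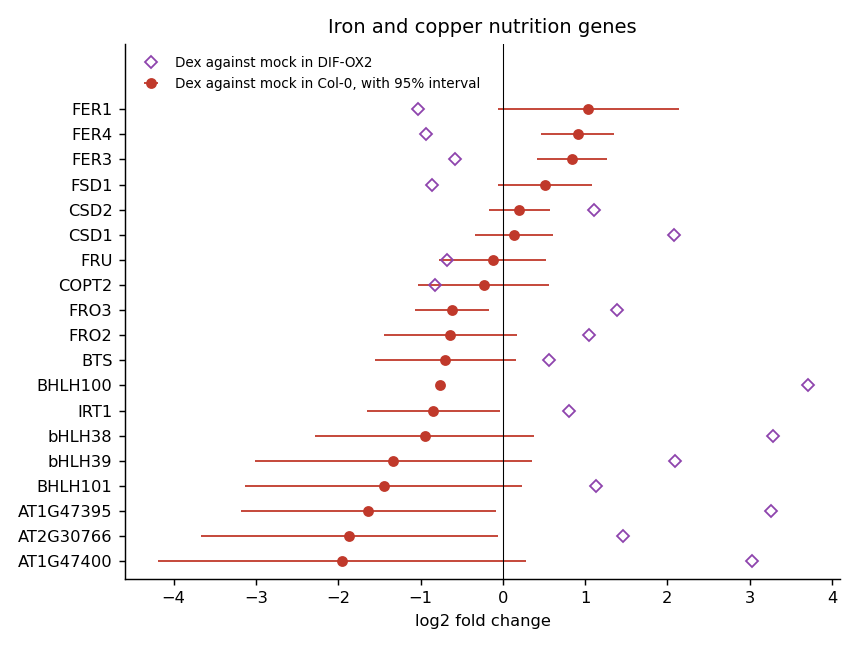
Log2 fold change of Dex against no Dex for the 19 iron and copper genes in Col-0 (red points, with 95% intervals; BHLH100, with a group at 0 counts, has none) and in DIF-OX2 (open purple diamonds). The 3 ferritins lie above 0 in Col-0 and below 0 in DIF-OX2, while IRT1, FRO2 and FRO3 lie below 0 in Col-0 and above 0 in DIF-OX2.

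Among nitrate, phosphate and sulfate genes, 3 of 16 had an unadjusted p under 0.05, all of the sulfate part. APR3, an enzyme of sulfate reduction, had 190 and 190 CPM without Dex and 109 and 114 CPM on Dex (-0.76, SE 0.27). AT5G48850, a gene that rises under sulfur deficiency, had 8.47 and 12.4 CPM against 3.79 and 6.67 CPM (-0.98, SE 0.33), and the sulfate transporter SULTR1;1 had 0.891 and 0.971 CPM against 1.99 and 2.93 CPM (1.41, SE 0.61). APR2, a gene outside the list that was added after its value was seen, had 440 and 376 CPM against 222 and 221 CPM (-0.88, SE 0.21). The nitrate reductase NIA1 had 263 and 269 CPM without Dex and 297 and 311 CPM on Dex (0.19, SE 0.30).

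Genes that plants raise against foreign compounds gave no call. They include cytochromes P450, glucosyltransferases (UGT) and glutathione transferases (GST), which oxidise, tag and conjugate such compounds. Of 13 P450 and UGT genes 0 had an unadjusted p under 0.05 (median -0.11), and of 20 GST and oxylipin reductase genes 2 had one (median 0.02). GSTU24, a marker of xenobiotic exposure, had 32.6 and 29.0 CPM without Dex and 28.7 and 30.5 CPM on Dex, with a log2 fold change of -0.06 and a 95% half-width of 0.27. UGT74E2 had 14.1 and 14.7 CPM against 10.2 and 10.7 CPM (-0.46, half-width 1.14). GSTU25 had 30.6 and 24.3 CPM against 21.2 and 20.9 CPM, and GSTU9 had 6.02 and 6.36 CPM against 8.16 and 8.99 CPM. In 15 of the 20 GST and reductase genes the interval lay within 2-fold, but in only 5 of the 13 P450 and UGT genes. In DIF-OX2 on Dex 8 of these 20 genes were called, all higher, against 12.7% of all genes, GSTU24 among them (1.202, adjusted p = 0.000544 in edgeR's fit).

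Nuclear genes for photosynthesis gave no call either. Light-harvesting proteins had a median of 0.13, with 17 of 20 above 0 (0.01 without replicate 2 on Dex), and photosystem and electron transport subunits had a median of 0.10, with 27 of 30 above 0. CAB2, a light-harvesting protein of photosystem II, had 6678 and 7844 CPM without Dex and 7289 and 8110 CPM on Dex, with a half-width of 2.02. PSAD-1, a photosystem I subunit, had 1669 and 1830 CPM against 1725 and 2025 CPM (0.10, half-width 0.59), and RBCS1A, a small subunit of Rubisco, 13253 and 13541 CPM against 13833 and 15519 CPM (0.13, half-width 1.02). These are among the most abundant mRNAs of the seedling, yet their intervals were wide. The intervals use the spread within groups over all 10 libraries, including dal-2 and DIF-OX2 on Dex. A wide interval therefore need not mean a wide spread among the 4 Col-0 libraries. In the photosystem list 18 of 30 intervals lay within 2-fold, and in the light-harvesting list 4 of 20. In DIF-OX2 on Dex 25 of the 30 photosystem genes and 9 of the 20 light-harvesting genes were called, all lower, against 11.6% of all genes, with medians of -1.42 and -1.502.

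Nuclear factors for plastid transcription and RNA editing were measured closely, with 24 of 25 intervals within 2-fold, a median of 0.06 and 0 at an unadjusted p under 0.05. The sigma factor SIGA had 237 and 263 CPM without Dex and 284 and 218 CPM on Dex (0.00, SE 0.42). For poly(A) polymerases and organellar RNA decay all 9 intervals lay within 2-fold, with a median of -0.03. AT1G28090, its first member, had 21.2 and 17.9 CPM against 24.4 and 20.6 CPM (0.20, SE 0.19). An interval within 2-fold does not exclude a smaller change. Any link of these nuclear genes to the lower plastid counts on Dex was not tested. Of the mitochondrial dysfunction genes, AOX1A, the alternative oxidase, had 36.6 and 33.1 CPM without Dex and 32.0 and 32.3 CPM on Dex (-0.12, half-width 0.31).

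Steroid-related lists are of interest because Dex is a steroid and brassinosteroids are the steroid hormones of plants. Brassinosteroid synthesis had a median of 0.11, with 10 of 12 intervals within 2-fold, and its rate-limiting enzyme DWF4 had 18.6 and 24.3 CPM without Dex and 18.8 and 24.2 CPM on Dex (0.01, half-width 0.41). The receptor BRI1 had 153 and 233 CPM against 162 and 206 CPM (-0.07, half-width 0.54). BES1, a transcription factor of the pathway, had 242 and 264 CPM against 163 and 180 CPM (-0.56, SE 0.23) and was the 1 of 14 signalling and response genes with an unadjusted p under 0.05. Over these 14 the median was -0.10, with 11 below 0 and values from -1.39 to 0.49. Only 9 of the 14 intervals lay within 2-fold. SMT1, a sterol methyltransferase, had 111 and 172 CPM against 121 and 161 CPM (-0.01, half-width 0.60), and 0 of 11 sterol genes had an unadjusted p under 0.05.

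Other hormone lists held few members at an unadjusted p under 0.05. They were GA20OX1 among 14 gibberellin genes, CKX3, a cytokinin oxidase, among 11 cytokinin genes (-1.33, SE 0.57), and none among 14 abscisic acid and 14 auxin genes. List medians were 0.07 for gibberellin, -0.25 for cytokinin, -0.26 for abscisic acid and -0.12 for auxin. In that order 6, 8, 10 and 12 members were below 0, against 10547 of all 20681 genes. The abscisic acid values ran from -1.32 to 0.24. With 1 Col-0 library left out, the abscisic acid median ran from -0.30 to 0.03. The auxin-responsive IAA1 had 32.5 and 25.1 CPM without Dex and 32.4 and 22.9 CPM on Dex (-0.06, SE 0.26). LTI78, which rises under drought and cold, had 53.4 and 35.2 CPM against 54.9 and 49.8 CPM (0.24, SE 0.63). The response regulator ARR4 had 94.9 and 110 CPM against 94.8 and 124 CPM (0.09, SE 0.27).

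Defence and stress lists were alike in this. WRKY70, a regulator of salicylate defence, had 19.3 and 30.5 CPM without Dex and 11.4 and 18.05 CPM on Dex (-0.75, SE 0.26), and was the 1 of 16 salicylate genes with an unadjusted p under 0.05. JAZ1, a jasmonate repressor, had 13.8 and 10.2 CPM against 7.97 and 8.85 CPM (-0.51, SE 0.19), the 1 of 20 in its list. WRKY33, an immune regulator, had 27.3 and 26.3 CPM against 16.5 and 18.18 CPM (-0.63, SE 0.13), and ERF6 had 0.891 and 2.48 CPM against 3.22 and 4.02 CPM (1.1004, SE 0.46). The zinc-finger gene STZ had 2.67 and 3.24 CPM against 1.42 and 3.54 CPM, and its groups overlapped. The defence markers PR1 and PDF1.2 could not be compared: PR1 had at most 0.223 CPM in the 4 libraries, and PDF1.2 had 0 counts in all of them. In DIF-OX2 on Dex 10 of 16 salicylate and 13 of 20 jasmonate and ethylene genes were called higher, against 12.7% of all genes, and 1 of each list lower.

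In the remaining lists 1 member had an unadjusted p under 0.05, the clock gene PRR7, at 71.3 and 83.6 CPM without Dex and 106 and 109 CPM on Dex (0.47, SE 0.17). CCA1, a clock gene that peaks at dawn, had 409 and 350 CPM against 294 and 246 CPM, with a half-width of 2.36 from the spread over all 10 libraries. The chaperone HSP101 had 14.9 and 23.2 CPM against 14.1 and 12.9 CPM (-0.50, SE 0.36). Its list of 13 heat shock and folding genes had a median of 0.49, with 8 above 0 and 5 below. That median was 0.20 to 0.33 with 1 Col-0 library left out. Only 1 of the 13 intervals lay within 2-fold. TT4, the first enzyme of flavonoid synthesis, had 433 and 243 CPM against 315 and 270 CPM (-0.21, SE 0.34). The starvation marker ASN1 differed between replicates in both groups, at 23.4 and 149 CPM without Dex and 28.2 and 93.0 CPM on Dex. CYCA1;1, a mitotic cyclin, had 17.0 and 14.8 CPM against 19.2 and 14.4 CPM (0.07, SE 0.21).

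Markers of organs and cell types did not separate the groups beyond the error of the test. Of 16 root markers 0 had an unadjusted p under 0.05, with a median of 0.10 and summed levels of 2283 and 2178 CPM without Dex and 2316 and 2281 CPM on Dex. CASP1, a root endodermis protein, had 36.2 and 29.8 CPM against 36.5 and 40.8 CPM (0.23, SE 0.21). The 12 guard cell and trichome markers had summed levels of 100 and 85.0 CPM against 98.6 and 87.6 CPM, with FMA, a guard cell factor, at 16.3 and 13.0 CPM against 17.5 and 11.8 CPM. Of 9 flower markers 4 were tested, at a summed 1.08 to 1.77 CPM, with PI at most 0.474 CPM. Of 11 seed storage markers 2 were tested, and CRA1 was at 0 counts in both libraries without Dex and at 0.0949 and 0.204 CPM on Dex. In whole seedlings, fewer cells of a type and less RNA per cell cannot be told apart.

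Dex in DIF-OX2 gives the scale of a called response in the same fit, from 4 other libraries. There 5023 genes (24.3%) were called, 2632 higher (12.7%) and 2391 lower (11.6%). The transgene is induced in it, so it is not a repeat of the wild-type comparison. The difference between both Dex effects was called for 1309 genes (6.33%), 792 of them more positive in DIF-OX2 (3.83%) and 517 more negative (2.5%). Without 1 Col-0 library it was called for 257 or 313 genes (replicate 1 or 2 without Dex) and for 190 or 251 (replicate 1 or 2 on Dex), and without dal-2 for 3681. At an unadjusted p under 0.05 DIF-OX2 had 7873 genes (38.1%).

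Of the 566 genes at an unadjusted p under 0.05 in Col-0, 355 (62.7%) had the same sign in DIF-OX2, against 55.4% of all genes. In DIF-OX2 149 of the 566 were called in the same direction (26.3%) and 60 in the opposite one. Over all genes 12.7% were called higher there and 11.6% lower, or 24.3% in either direction. The 26.3% counts the same direction only, so the 24.3% is not its counterpart. Both tests use the same estimate of spread for each gene. Choosing genes by a small p in Col-0 therefore also favours a call in DIF-OX2. For 85 of the 566 the difference between both effects was called, against 6.33% of all genes. The Col-0 effect by which the 566 were chosen is part of that difference. Across all tested genes the 2 log2 fold changes had a Pearson r of 0.20 and a Spearman rho of 0.16, given as a description, since genes are not independent replicates and all libraries share 1 scaling. Of the 10 genes of smallest p, 8 were called in DIF-OX2, 5 of them in the opposite direction, against 24.3% of all genes called there. These 10 were also chosen by p in Col-0, so the shared estimate of spread favours calls for them too.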

How the data were processed

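Gene-level read counts of 10 RNA-seq libraries (5 groups of 2) were analysed. Per the submitters' processing notes, the authors used Trimmomatic, TopHat2, HTSeq and the TAIR10 build; versions, the strand setting and the handling of reads with several alignments are not given in the sources used here. The deposited values are raw counts, checked to be whole numbers; 0 columns belonged to no sample. Names came from the TAIR10.1 annotation, which held 32835 of 33602 genes. It named 6 plastid and 45 mitochondrial IDs, through protein matches of nuclear copies, so psbA, rbcL, cox1 and nad4 could not be matched.

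In R 4.3.3, edgeR 4.0.16 was fitted to all 10 libraries with 1 coefficient per group, after filterByExpr (12921 genes removed) and TMM scaling, and tested on simulated data. Residual degrees of freedom were 5, prior degrees of freedom 3.27 and the common biological coefficient of variation 0.188. Benjamini-Hochberg adjustment covered all 20681 genes, with calls at 0.05. Intervals used the fit's SE and the t distribution. Level classes used mean CPM over the 4 Col-0 libraries.

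Genes named were the 10 of smallest p, the 8 plastid and 6 mitochondrial genes of highest count, given partly as ranges, the first tested member of each list, and organellar genes with a name; list members at an unadjusted p under 0.05 and the other list members given were chosen after their values were seen. Comparison, lists and rules were chosen with earlier results of these data known. Alternatives changed scaling, filter, libraries, test (limma-voom in limma 3.58.1, DESeq2 1.42.0) or the replicate number as a term. Depth was 8805568 to 16556322 counts per library. Counting intervals are 95% exact binomial (Clopper-Pearson) and cover counting error only.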

Additional observations from a re-analysis of the deposited data

Results flagged for a closer look

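By the test of the difference itself, the effect of Dex differed between Col-0 and DIF-OX2 for 20 of the genes examined singly. The threshold was an adjusted p at or under 0.05 in edgeR's quasi-likelihood test. Of the 20, 14 had a more positive effect in DIF-OX2 and 6 a more negative one. Over all tested genes the difference was called for 6.33%, with 3.83% more positive and 2.5% more negative. Each value is the log2 fold change on Dex in DIF-OX2 minus that in Col-0. The genes of smallest p, and list members named for an unadjusted p under 0.05, were chosen by their effect in Col-0. That same effect enters the difference, so the choice favours a called difference for them. Among the genes of smallest p it was -2.99 for GA20OX1, 2.05 for CYP82C4, 1.15 for AT1G72940, 1.19 for AT2G41410, -1.61 for AT3G43670, 2.94 for IGMT2 and -1.69 for CYP705A5. Among iron and copper genes it was 4.23 for bHLH38, 4.89 for AT1G47395, 2.01 for FRO3, 1.95 for CSD1, -1.42 for FER3 and -1.84 for FER4. Of the other list members it was 1.26 for GSTU24, -1.89 for IAA1, 2.71 for STZ, 0.86 for AOX1A, 2.63 for JAZ1, 4.93 for CKX3 and 2.07 for WRKY33. No group of 2 libraries allows a check for an outlying sample. Why the effects differed was not tested, and the induced transgene and the genotype cannot be told apart from each other in DIF-OX2.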

How the results depend on the processing

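No gene was called in any of 15 other settings of scaling, filter, libraries, test and terms. The number at an unadjusted p under 0.05, 566 in the test reported, was 1042 with the 4 Col-0 libraries alone, 1132 without dal-2, 352 in DESeq2 and 349 to 573 with 1 Col-0 library left out. The median half-width was 0.39 and 0.40 in the first 2 of these and 0.64 to 0.66 with a library left out. The plastid median ran from -1.66 to -0.64 and the mitochondrial from -1.03 to -0.15 with a library left out, and they were 0.076 and 0.289 when scaled to their own totals, which by construction removes a shared shift. Genes called for the difference between both Dex effects, 1309 in the test reported, numbered 3681 without dal-2, 2046 in DESeq2 and 190 to 313 with a library left out.

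The replicate number may or may not pair the libraries. Deviations of same-numbered libraries correlated at 0.281 between Col-0 and Col-0 on Dex, 0.458 and 0.298 between these and DIF-OX2, and -0.105 to 0.124 in the other pairs of groups, and the labels do not say that a number marks a batch. With the replicate block over all 10 libraries 0 genes were called, 698 had an unadjusted p under 0.05 and the median half-width was 0.47. The next fits were chosen after seeing the data. With the replicate block and 8 libraries, 0 were called (smallest adjusted p 0.0869 in edgeR's test), 1716 had an unadjusted p under 0.05, the median half-width was 0.35, and 5099 differences were called. With the replicate block and the 4 Col-0 libraries alone, which leaves 1 residual degree of freedom, 450 genes were called, 119 higher and 331 lower. Among them were 24 of 54 plastid genes, 3 of 6 mitochondrial genes and 38 list members. In that fit 2318 genes (12%) had an unadjusted p under 0.05, against 45 of the 54 plastid genes. The median half-width was 0.296. Of the 450, 180 had an unadjusted p under 0.05 in the test reported. The count of 0 thus depends on leaving out that term in a fit of 4 libraries, and which is right was not tested.

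Some named log2 fold changes changed sign, most but not all of them near 0 in the test reported, and none called there. FMA was 0.00082 with DESeq2 size factors, 0.027 with upper quartile scaling, 0.0019 with no filter, 0.0097 at 5 CPM and 0.0026 in DESeq2. SMT1 was 0.026 with upper quartile scaling, 0.0076 at 5 CPM, 0.0085 in limma-voom, and 0.0054, 0.0074 and 0.0091 with the replicate block in 10, 8 and 4 libraries. SIGA was -0.00042 in 4 libraries, -0.00032 in limma-voom, and -0.019 and -0.0097 with the block in 8 and 4. PDF1.2, at 0 counts in Col-0, was fitted at -0.45 in limma-voom and at -0.014 and -0.0095 with the block in 10 and 8. Scaled to its own compartment, ATMG01080 was 0.25 (-0.68 in the test reported), ATCG00430 0.50 (-0.91), ATCG00670 0.43 (-0.78), ATCG00750 0.85 (-0.51) and ATMG00730 0.35 (-0.59). With 1 Col-0 library left out, ranges crossed 0 for GSTU24 (-0.12 to 0.045), DWF4 (-0.19 to 0.23), BRI1 (-0.32 to 0.28), SMT1 (-0.27 to 0.36), LTI78 (-0.015 to 0.59), IAA1 (-0.30 to 0.17), ARR4 (-0.11 to 0.29), STZ (-1.05 to 0.28), CAB2 (-0.012 to 0.22), PSAD-1 (-0.017 to 0.24), SIGA (-0.18 to 0.18), TT4 (-0.55 to 0.28), ASN1 (-1.61 to 1.396), CYCA1;1 (-0.11 to 0.27), FMA (-0.28 to 0.26), ATCG00430 (-1.504 to 0.18), ATCG00750 (-0.98 to 0.28) and ATMG00730 (-1.03 to 0.12). Other causes were not tested. With organellar genes removed no organellar value exists, and the difference of effects cannot be had from the Col-0 libraries alone.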
